A study of Mus musculus with 2 samples.

Results

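The 10 genes described here encode transcription factors of the immediate-early response to T cell receptor (TCR) signals. They are the nuclear receptor genes *Nr4a1* and *Nr4a3*, the zinc finger genes *Egr1*, *Egr2* and *Egr3*, and the AP-1 genes *Fos*, *Fosb*, *Jun*, *Junb* and *Jund*. They are set by symbol alone, in a rule that names no measured value but was written with earlier results of these data known, and all 10 were found among the 48321 genes listed in the count tables. Their levels were measured by RNA-seq in 2 libraries, replicate 1 and replicate 2, of sorted CD4- mature thymocytes from MHC-II0:CD8ab Tg mice on the C57Bl/6 background. MHC class II is missing in these mice through loss of I-Aβ, and both copies of their endogenous *Cd8* locus are disrupted. CD8α and CD8β are made instead from cDNAs in the *Rosa26* locus, which are switched on when Cre driven by *Cd4* sequences removes a stop cassette. Mature thymocytes were gated as cells with low CD24 and high TCRβ, and the age of the mice is not given in the sources used here. The sample titles call the cells CD4-CD8-, whereas the cell type fields call them CD8+. The labels do not say which mice the libraries came from. The p-values below compare only these 2 samples, against counting error. With a single condition, no effect of genotype or treatment could be tested.

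The NR4A, EGR and AP-1 factors are made within a short time of TCR engagement, because their genes are transcribed without new protein synthesis. NR4A proteins are orphan nuclear receptors that bind DNA without a known hormone, and *Nr4a1* is widely used as a reporter of TCR signal strength in thymocytes. EGR proteins act downstream of the ERK branch of the MAP kinase pathway and have roles in thymic selection and in the development of iNKT cells. FOS proteins bind DNA as AP-1 only when paired with a JUN protein, whereas JUN proteins can also pair with each other. Signals reach these genes through serum response factor at CArG boxes, CREB at cyclic AMP response elements (CRE) and MEF2 factors, and their mRNAs are usually short-lived.

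The promoters of the group share few short sequences. RefSeq windows on GRCm38.p6, each the 250 bases before an annotated start, were found for 8 of the 10 genes and for 27025 genes in all. They need not cover every start of a gene. *Egr1* and *Egr3* had no entry. A CRE half-site, TGACG on either strand, was in the windows of 6 of the 8 genes, *Nr4a1*, *Nr4a3*, *Egr2*, *Fos*, *Fosb* and *Junb*, and in those of 19.8% of all genes. The CArG box was in 1 of the 8, *Egr2*, and in 1.62% of all genes. The EGR motif GCGNGGGCG, on either strand, was in *Nr4a1* and *Fosb* and in 5.33% of all genes, and the TATA motif TATAAA, on the sense strand, was in *Fos* and in 8.94%. The full CRE was TGACGTCA, in which the half-site and its own reverse complement share the middle CG. It was in none of the 8 and in 1.77% of all genes. The AP-1 motif TGANTCA was in none of the 8 and in 7.82% of all genes. *Egr2* has 5 annotated start windows and the other 7 genes have 1 each, so more sequence was searched for *Egr2*. A match is a description of the letters, and a missing match says only that the letters are not in these windows.

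The 30-base stretches below show examples of the matches in *Egr2*, *Fos*, *Nr4a3*, *Nr4a1* and *Fosb*, to make the motifs visible, on the strand of the gene, with the motif in capitals. In *Egr2* the CArG boxes lie at chr10:67537484-67537513 and chr10:67537787-67537816, each 72 bases before a different annotated start. The labels distal and proximal below give only their order along the gene, not their distance from a start. In *Fos* the TATA motif at chr12:85473847-85473876 lies 33 bases before the start and the nearer of its CRE half-sites, at chr12:85473814-85473843, lies 66 bases before it. *Nr4a3* has 3 half-sites in the sense direction, of which that at chr4:48045148-48045177 is nearest to the start, at 147 bases. The antisense EGR match of *Nr4a1* is at chr15:101266776-101266805, 60 bases before the start, and the sense match of *Fosb* is on the minus strand at chr7:19310076-19310105, 50 bases before the start. The motifs shown for *Egr2*, *Nr4a3* and *Nr4a1* lie within the GENCODE M21 spans of these genes, given further below. The start of a window is therefore not always the first start of its gene.
*Egr2* CArG box, distal: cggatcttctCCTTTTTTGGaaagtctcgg
*Egr2* CArG box, proximal: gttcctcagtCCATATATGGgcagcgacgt
*Fos* TATA motif: acagcgcttcTATAAAggcgccagctgagg
*Fos* CRE half-site: ttccgcccagTGACGtaggaagtccatcca
*Nr4a3* CRE half-site: gtggcataaaTGACGtgccgagagagcgag
*Nr4a1* EGR motif: gcgtcagtggCGCCCCCGCccctctccatg
*Fosb* EGR motif: tgacgcaagcGCGGGGGCGggtcccggagg

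The genes had few exons. Their main transcripts in GENCODE M21 had a median of 2 exons, against 9 exons among 11624 expressed protein-coding genes. At most 4 exons were found in 8 of the 10 (80%), against 19.8% of the expressed genes, and *Jun*, *Junb* and *Jund* had a single exon, as did 2.24% of the expressed genes. Only *Nr4a1* and *Nr4a3*, with 8 exons each, lay outside this pattern. Their median GC content was 55.8%, against 50.5% of the expressed genes. Their transcripts were not shorter, with a median of 3077 bases against 2960. The pentamer ATTTA, the core of the AU-rich elements that shorten mRNA life, was in the 3′ UTR of all 10 genes and of 65.2% of the expressed genes. It occurred at a median of 2.57 per kb of 3′ UTR in the 10 genes and 1.16 per kb in the expressed genes. Their 3′ UTRs were longer, with medians of 1208 and 957 bases, and length raises the chance of a match. The longer nonamer form of the element was found in 1 of the 10, *Fos*, and in 7.18% of the expressed genes. Its 30-base stretch, at chr12:85477103-85477132 and starting at base 655 of the 3′ UTR, is shown because *Fos* mRNA is the classical example of this element.
*Fos* AU-rich nonamer: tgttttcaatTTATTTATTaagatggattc

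The totals on genes were 16732644 counts in replicate 1 and 16245849 in replicate 2, 40.6% and 41.2% of the uniquely aligned reads. All 6 T cell markers (*Cd3d*, *Cd3e*, *Cd3g*, *Trbc1*, *Trbc2*, *Lck*) and the mature single-positive thymocyte markers *Ccr7*, *Klf2*, *S1pr1* and *Il7r* exceeded 1 CPM, which is counts scaled to a library total of 1000000 on genes, in both libraries. Markers of double-positive thymocytes summed to 14.9 and 16.0 CPM, most of it from *Dntt* with 13.4 and 13.0 CPM, whereas *Cd4* had 12 and 27 counts and *Rag1* 8 and 19, which did not pass the test between the libraries described below. Markers of B cells summed to 13.4 and 15.2 CPM, those of myeloid and dendritic cells to 15 and 16.1 CPM, and those of epithelial cells to 3.65 and 4.19 CPM, and all 5 erythroid genes were at 0 in both. Their part in the levels below was not tested. The libraries stood apart in sex-linked genes. The counts of *Xist* were 34 in replicate 1 and 25266 in replicate 2, and those of *Ddx3y* were 2450 and 0, the pattern of male cells in replicate 1 and female cells in replicate 2. Sex and replicate therefore cannot be told apart in any ratio between the libraries.

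The levels of the 10 factors spanned a wide range, and their order was the same in both libraries. Per kb of annotated exon, the scale on which genes can be compared, they followed the order *Jund*, *Junb*, *Egr1*, *Nr4a1*, *Egr2*, *Nr4a3*, *Egr3*, *Fos*, *Jun* and *Fosb*. The highest, *Jund*, exceeded the lowest, *Fosb*, by 1068-fold, and by 647-fold per kb of the longest transcript or 619-fold on RefSeq spans of the JUN genes, both lengths tried after the data were seen. Both libraries of each gene lay above both libraries of the next gene in the order for every neighbouring pair except *Fos* and *Jun*, whose ranges overlapped. Per kb of the longest transcript the places of *Egr1* (14.4 and 14.1) and *Nr4a1* (16.1 and 15.8) were exchanged in both libraries, and the ranges of *Nr4a3* and *Egr3* overlapped too. The fold between neighbouring means was 4.36 from *Jund* to *Junb*, 2.51 from *Junb* to *Egr1*, 1.23 from *Egr1* to *Nr4a1* and 1.37 from *Nr4a1* to *Egr2*. It was 2.02 from *Egr2* to *Nr4a3*, 1.15 from *Nr4a3* to *Egr3*, 1.78 from *Egr3* to *Fos*, 1.16 from *Fos* to *Jun* and 12.2 from *Jun* to *Fosb*. The median of the 10 levels was 6.32 CPM per kb, beside 5.71 CPM per kb for 11855 protein-coding genes, and 5 of the 10 were above the latter. These 11855 are the tested protein-coding genes, those with at least 10 counts over both libraries. Protein-coding genes with fewer counts were left out of this median and of the percentages below. In such bulk samples, fewer cells that express a gene and less RNA of it per cell cannot be told apart.

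**Figure D1:**
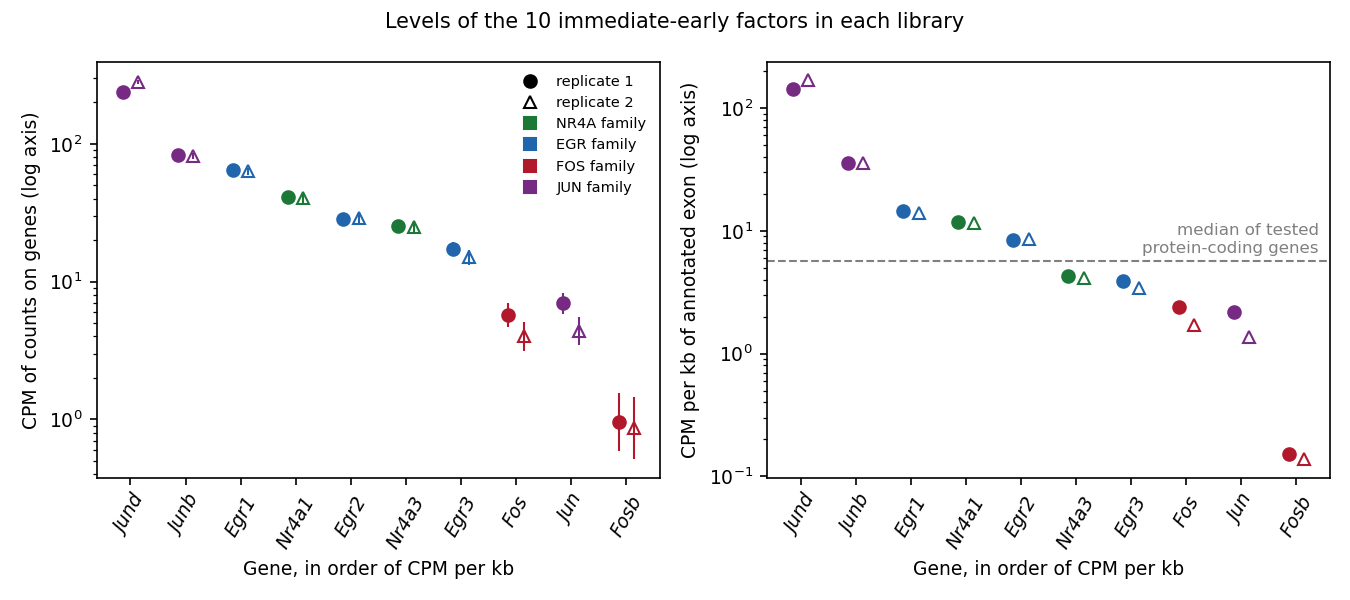
Levels of the 10 factors on log axes, in CPM with Wilson 95% intervals as bars (left) and in CPM per kb of annotated exon (right), with a circle for replicate 1, a triangle for replicate 2, colours for the families, and a dashed line at the median of tested protein-coding genes, 5.71 CPM per kb. Per kb, *Jund* lies at the top with 143 and 168, *Fosb* at the bottom with 0.153 and 0.138, and only *Fos* and *Jun* overlap with a neighbour.

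Both NR4A genes were present at moderate levels, close together in the libraries. *Nr4a1*, which encodes Nur77 (chr15:101254269-101274795, plus strand, GRCm38), had 687 and 655 counts. These were 41.1 CPM in replicate 1 (Wilson 95% interval 38.1 to 44.2) and 40.3 CPM in replicate 2 (37.3 to 43.5), with a mean of 40.7 ± 0.523 (SD, n = 2). *Nr4a3*, which encodes the closely related receptor NOR1 (chr4:48045153-48086447, plus strand), had 426 and 402 counts, 25.5 and 24.7 CPM and a mean of 25.1 ± 0.505 CPM (SD, n = 2). Per kb of exon the means were 11.6 ± 0.149 for *Nr4a1* and 4.19 ± 0.0844 for *Nr4a3* (SD, n = 2 each), so that *Nr4a1* exceeded *Nr4a3* by 2.75-fold in replicate 1 and 2.78-fold in replicate 2. *Nr4a1* stood above 69.4% of the tested protein-coding genes per kb, and *Nr4a3* above 43.1%. Their relative *Nr4a2*, which is not among the 10, was lower than both per kb, at 1.67 ± 0.341 (SD, n = 2), with 97 and 126 counts. Of the summed level of the 3 NR4A genes per kb, *Nr4a1* held 67.3% and 65.5%, *Nr4a3* 24.5% and 23.6%, and *Nr4a2* 8.22% and 10.9%.

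The 3 EGR genes formed a series from *Egr1* to *Egr3*. *Egr1* (chr18:34859823-34864984, plus strand), the founding member of the family, had 1079 and 1028 counts, 64.5 and 63.3 CPM, and a mean of 14.2 ± 0.190 CPM per kb (SD, n = 2). *Egr2* (chr10:67535475-67542188, plus strand) had 477 and 470 counts, 28.5 and 28.9 CPM, and a mean of 8.45 ± 0.0881 CPM per kb (SD, n = 2). *Egr2* is needed for iNKT cell development and restrains effector T cells together with *Egr3*. *Egr3* (chr14:70077203-70082614, plus strand) had 288 and 244 counts, 17.2 and 15.02 CPM, and a mean of 3.66 ± 0.352 CPM per kb (SD, n = 2). The libraries of the 3 genes did not overlap on the per kb scale. *Egr1* exceeded *Egr2* by 1.71-fold and 1.66-fold in the libraries, and *Egr3* by 3.68-fold and 4.14-fold. *Egr4*, the other family gene, had 1 and 0 counts and was under the smallest level the depth can show (3 counts, 0.179 and 0.185 CPM). Of the 4 EGR genes per kb, *Egr1* held 53.9% and 54.2%, *Egr2* 31.4% and 32.7%, and *Egr3* 14.6% and 13.1%.

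Of the FOS genes, *Fos* was low and *Fosb* close to absent. *Fos* (chr12:85473890-85477273, plus strand), the classical serum-induced proto-oncogene, had 95 counts in replicate 1 and 65 in replicate 2. These were 5.68 CPM (Wilson 95% interval 4.64 to 6.94) and 4.001 CPM (3.14 to 5.10), with a mean of 2.06 ± 0.504 CPM per kb (SD, n = 2). *Fosb* (chr7:19302696-19310051, minus strand) had 16 and 14 counts, 0.956 CPM (0.589 to 1.55) and 0.862 CPM (0.513 to 1.45), with a mean of 0.146 ± 0.0107 CPM per kb (SD, n = 2). It stood above 6.15% of the tested protein-coding genes per kb, and *Fos* above 30.2%. The FOS gene with the highest level was neither of these but *Fosl2*, which encodes FRA2, with 556 and 455 counts, 33.2 and 28.01 CPM, and a mean of 3.16 ± 0.381 CPM per kb (SD, n = 2). *Fosl1*, which encodes FRA1, had 17 and 29 counts, but 1163 of its 2033 exon bases overlap *Ccdc85b* on the opposite strand. Of the 4 FOS genes per kb, *Fosl2* held 52.8% and 51.6%, *Fos* 37.1% and 30.3%, *Fosl1* 7.69% and 15.7%, and *Fosb* 2.36% and 2.46%.

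Among the JUN genes, *Jund* was far above *Jun*. *Jund* (chr8:70698949-70700616, plus strand), which is known for steady expression in unstimulated cells, had 3990 and 4557 counts, 238 CPM (Wilson 95% interval 231 to 246) and 281 CPM (272 to 289), and a mean of 156 ± 17.8 CPM per kb (SD, n = 2). It stood above 98.5% of the tested protein-coding genes per kb. *Junb* (chr8:84974484-84978718, minus strand), which can oppose *Jun* in growth control, had 1378 and 1331 counts, 82.4 and 81.9 CPM, and a mean of 35.7 ± 0.131 CPM per kb (SD, n = 2). *Jun* (chr4:95049034-95052222, minus strand), the partner of *Fos* in classical AP-1, had 116 and 71 counts, 6.93 CPM (5.78 to 8.31) and 4.37 CPM (3.47 to 5.51), and a mean of 1.77 ± 0.568 CPM per kb (SD, n = 2). The libraries of the 3 genes did not overlap. *Jund* held 79.0% and 82.0% of the JUN level per kb, *Junb* 19.8% and 17.4%, and *Jun* 1.20% and 0.668%. *Junb* exceeded *Jun* by 16.5-fold in replicate 1 and 26.0-fold in replicate 2.

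The level of *Jund* is less certain than its counting interval shows. The exons of *Gm11175*, a gene annotated on the opposite strand at chr8:70699162-70700080, lie wholly within the single exon of *Jund* and cover 52.6% of it. *Gm11175* had 2851 and 3334 counts, 0.715 and 0.732 of the *Jund* counts in the same library. The strand setting of the counting is not given in the sources used here. Among genes of at least 200 bases that lie wholly within exons of an opposite-strand gene, 82 had a host with at least 100 counts per kb, and 76 of these were themselves counted at least 10 times, at a median of 1.104 times the density of the host. Reads from *Jund* and *Gm11175* therefore cannot be told apart. The annotated length matters too, since the RefSeq span of *Jund* is 2878 bases against 1668 exon bases in GENCODE. On the RefSeq spans, chosen after the data were seen, the means were 90.2 CPM per kb for *Jund*, 44.6 for *Junb* and 1.77 for *Jun*, and *Jund* stayed the highest of the 3. Opposite-strand overlaps were smaller for *Jun* (7.28% of its exon bases, with *Junos* at 13 and 10 counts) and *Junb* (7.52%, with *Prdx2* at 490 and 542 counts).

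**Figure D2:**
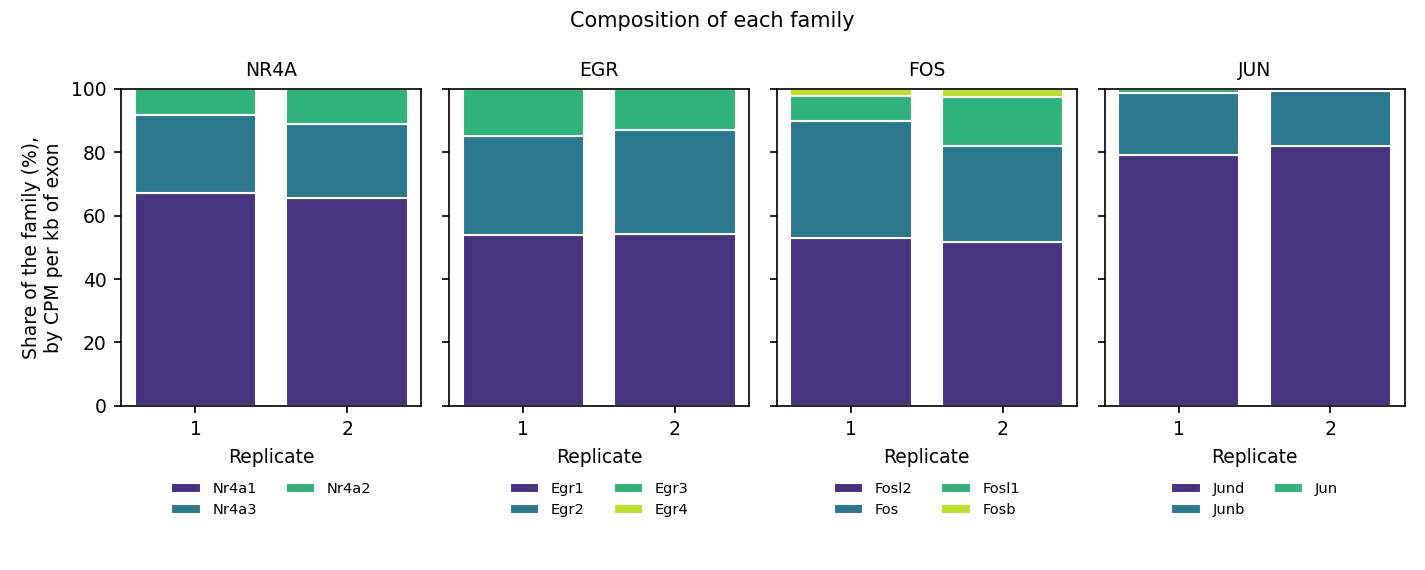
Share of each gene in the summed CPM per kb of its family, in percent, in replicate 1 and replicate 2, with the family genes outside the group of 10 included. *Nr4a1*, *Egr1* and *Jund* hold over 50% of their families in both libraries, whereas in the FOS family *Fosl2* does, with 52.8% and 51.6%.

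For 8 of the 10 factors the log2 ratio between the replicates was smaller than 0.25 in either direction, whereas *Jun* and *Fos* were further apart. *Jun* and *Jund* passed the test, in opposite directions. All 10 had at least 10 counts over both libraries and were compared by an exact binomial test (two-sided) whose p-values were adjusted over 15949 genes by the Benjamini-Hochberg method. It compares these libraries, not conditions. With a 2-fold minimum and an adjusted p under 0.05, 0 of the 10 differed, against 1.52% of all genes tested, and 0.577% of all genes were lower in replicate 2. Without the minimum, 2 of the 10 passed an adjusted p under 0.05, against 16.3% of all genes, a share near the background for so small a group. The gene that was lower in replicate 2, *Jun*, was 1 of 10, against 2.82% of all genes. At an unadjusted p under 0.05, 3 of the 10 differed, against 27.7%.

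*Jun* was lower in replicate 2, with 4.37 CPM against 6.93 CPM in replicate 1, a log2 ratio of -0.67 (exact 95% interval -1.11 to -0.23, adjusted p = 0.0175 in the exact binomial test). *Jund* was higher in replicate 2, with 281 against 238 CPM, a log2 ratio of 0.23 (0.17 to 0.30, adjusted p = 4.95e-12 in the exact binomial test). The partner on the opposite strand, *Gm11175*, had a log2 ratio of 0.27. Neither *Jun* (adjusted p = 0.811) nor *Jund* (adjusted p = 1) passed in edgeR's exact test when 0.1 was set as the biological coefficient of variation. *Fos* had 4.001 CPM in replicate 2 and 5.68 CPM in replicate 1, a log2 ratio of -0.50 (-0.98 to -0.03) that did not pass the exact binomial test over all genes (p = 0.0325, adjusted p = 0.136). The other 7 had adjusted p-values from 0.322 for *Egr3* to 0.981 for *Junb* in that exact test, and among them the widest interval was that of *Fosb*, from -1.30 to 0.98, with 16 and 14 counts. The interval of *Junb*, -0.12 to 0.10, was the narrowest of the 7.

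The ratio of replicate 2 to replicate 1 was below 0 on the log2 scale for 8 of the 10 and above 0 for *Egr2* and *Jund*, whereas 34.6% of all genes tested were below 0. The median log2 ratio was -0.03 for the 10 and 0.08 for all genes tested. The other 3 library scalings shifted all genes together, with 46.6 to 50.5% of all genes and 9 of the 10, now with *Egr2*, below 0. Among 10969 genes with at least 100 counts over both libraries, the size of the log2 ratio had a median of 0.12 and a 90th percentile of 0.35. A ratio at least as large as that of *Jun* was found in 1.93% of these genes, as large as that of *Fos* in 4.39%, and as large as that of *Jund* in 21.5%. The genes were not matched for counts, and counting error widens the ratios of genes with few counts, as *Jun* and *Fos* have. Beside these differences, the mature thymocyte markers *S1pr1* and *Ccr7* also passed an adjusted p under 0.05 and were lower in replicate 2, with log2 ratios of -0.48 and -0.30, whereas *Klf2* and *Il7r* did not pass. *S1pr1*, the receptor through which mature thymocytes leave the thymus, had 318 and 227 CPM. Their part in the differences of *Jun* and *Fos* was not tested.

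**Figure D3:**
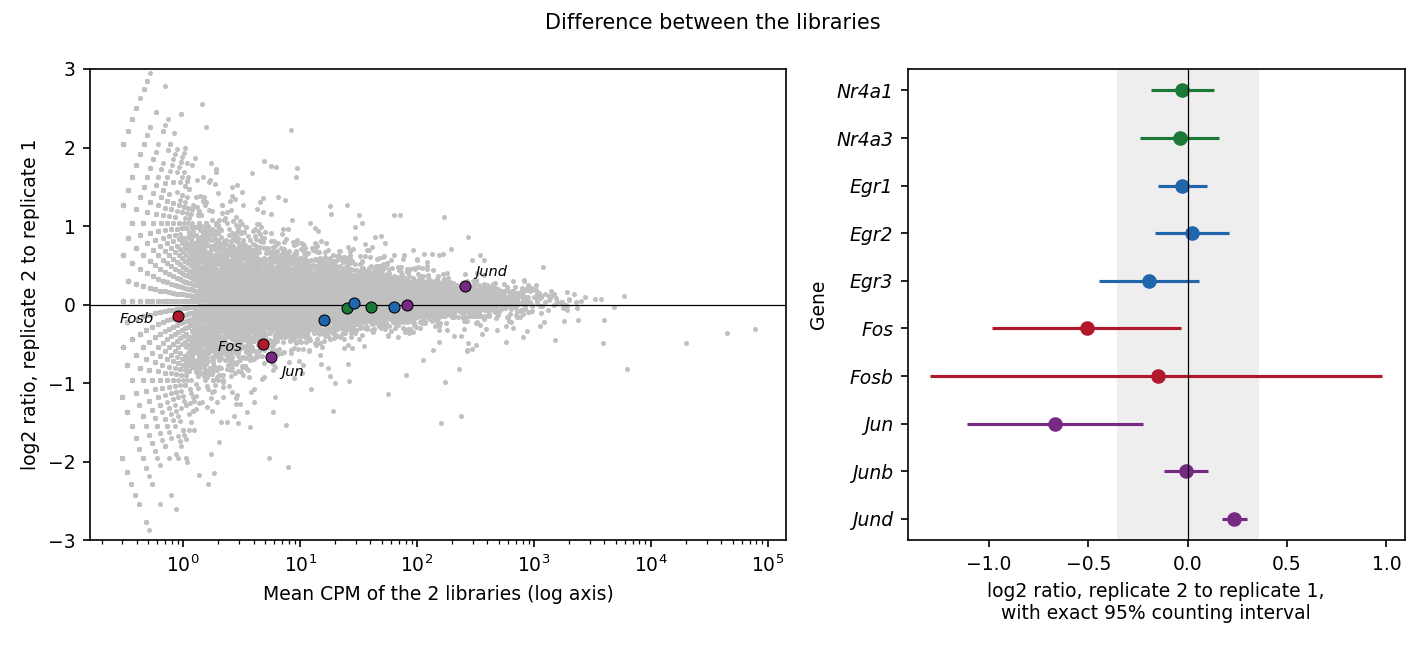
Log2 ratio of replicate 2 to replicate 1. The left panel plots it against mean CPM (log axis) for all genes tested, in grey, with genes beyond 3 in either direction not drawn and the 10 factors coloured by family, and the right panel gives each factor with its exact 95% counting interval over a grey band that holds 90% of genes with at least 100 counts. *Jun* at -0.67 and *Fos* at -0.50 lie outside the band, which was not matched for counts, and the interval of *Fosb* is the widest.

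The genes around these factors were described from lists of 86 genes, of which 78 had at least 10 counts over both libraries. Of these, 1 passed the test with the 2-fold minimum, and 24 passed an adjusted p under 0.05 at any fold (30.8%, against 16.3% of all genes), 14 higher and 10 lower in replicate 2. Their median log2 ratio was 0.04. The lists were not matched to all genes for counts, and smaller ratios pass this test in genes with more counts. *Fosl2* was among the genes lower in replicate 2, with a log2 ratio of -0.25 (adjusted p = 0.0437, exact binomial test). The family genes *Nr4a2* and *Fosl1* did not pass.

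Factors that carry the signal to these promoters were present in nearly all cases. Of 11, 10 exceeded 1 CPM in both libraries, and *Mef2c* had 0 counts in each, which allows up to 3 counts. Of the 9 with a known length, the highest per kb were *Mef2d* with 40.5, *Srf*, which encodes serum response factor, with 40.5, and *Elk4*, a partner of serum response factor, with 34.99, and the lowest of the others was *Crem* with 1.83. Of the 10 tested, 2 were higher in replicate 2, *Srf* with a log2 ratio of 0.19 (adjusted p = 0.000658, exact binomial test) and *Mef2a*, chosen after its values were seen, with 0.44 (adjusted p = 3.36e-22, exact binomial test).

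Partners and cofactors of the AP-1, EGR and NR4A proteins ranged from high levels to none detectable. Of 13 other bZIP genes that can pair with FOS or JUN, 9 exceeded 1 CPM in both libraries. *Atf4* had 48.2, *Mafk* 19.1 and *Batf*, which pairs with JUN proteins in lymphocytes, 18.5 CPM per kb, whereas *Batf2* was under the smallest level the depth can show. Of the 9 tested, *Maf* and *Mafg*, chosen after their values were seen, were higher in replicate 2, each with a log2 ratio of 0.34. The EGR corepressors *Nab2* and *Nab1* had 30.8 ± 0.148 and 27.9 ± 0.865 CPM per kb (SD, n = 2), above the level of each EGR gene. Of the 2941 exon bases of *Nab2*, 1050 overlap *Gm16229* on the opposite strand. The retinoid X receptors, which can pair with some NR4A proteins, had 23.7 ± 3.39 CPM per kb for *Rxrb* and 6.74 ± 0.338 for *Rxra* (SD, n = 2). Of the 4 cofactor genes, *Rxrb* was higher in replicate 2 by a log2 ratio of 0.29 (adjusted p = 6.81e-07, exact binomial test).

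The feedback inhibitors of MAP kinase signalling all exceeded 1 CPM in both libraries. Of the 9, *Dusp2*, a nuclear phosphatase of MAP kinases, was highest with 122 ± 4.15 CPM per kb (SD, n = 2), followed by *Dusp10* with 18.2 ± 4.52 and *Dusp6* with 13.4 ± 1.03. *Spred1* and *Spry1* were lowest, with 2.26 and 1.27. *Dusp10* was higher in replicate 2, with 65.1 against 45.6 CPM (log2 ratio 0.51, adjusted p = 3.97e-12, exact binomial test), and the other 8 did not pass.

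Among 22 other immediate-early genes the levels spread as widely as among the 10 factors. *Zfp36l2*, which encodes a protein that binds AU-rich elements, had 200 ± 12.7 CPM per kb, and the antiproliferative genes *Btg1* and *Btg2* had 95.7 ± 6.97 and 79.8 ± 4.37 (SD, n = 2 each). *Trib1* had 0.388 and *Klf4* 0.129 CPM per kb, the latter near the level of *Fosb*. All 22 were tested, and 5 passed an adjusted p under 0.05. *Zfp36l2*, *Btg1* and *Btg2* were higher in replicate 2, with log2 ratios of 0.13, 0.15 and 0.11, and *Klf6* and *Ifrd1*, chosen after their values were seen, were lower, with -0.19 and -0.32.

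Genes that serve as readouts of TCR signals were all above 1 CPM in both libraries. Of the 8, the highest per kb were *Cd5* with 52.2 ± 5.22, whose surface level follows TCR signal strength, *Cd6* with 52.2 ± 3.68, and the costimulatory receptor *Icos* with 21.8 ± 2.69 (SD, n = 2 each). The lowest were *Ikzf2* with 8.24 and *Tnfrsf9* with 4.12. *Cd5*, *Cd6* and *Cd69* were lower in replicate 2, with log2 ratios of -0.20, -0.14 and -0.22, and *Icos* and *Bcl2l11* were higher, with 0.25 and 0.24, at adjusted p-values up to 0.000272 in the exact binomial test. *Cd69* and *Bcl2l11* were chosen after their values were seen. The directions within this list were thus mixed.

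Of 6 genes known as targets of EGR proteins, all exceeded 1 CPM in both libraries. *Dgka*, a brake on TCR signalling, had 148 ± 9.98 CPM per kb, *Il2rb*, a receptor chain for IL-2 and IL-15, had 130 ± 11.5, and *Id3*, an inhibitor of E proteins, had 35.8 ± 6.30 (SD, n = 2 each). *Fasl* had 9.03 and *Zbtb16*, which encodes the iNKT cell factor PLZF, had 3.77 CPM per kb. *Il2rb* and *Id3* were higher in replicate 2, with log2 ratios of 0.18 and 0.36, as was *Cblb*, chosen after its values were seen, with 0.26. *Dgka* was lower, with -0.14, and the largest adjusted p of the 4 was 4.19e-07 in the exact binomial test.

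**Figure D4:**
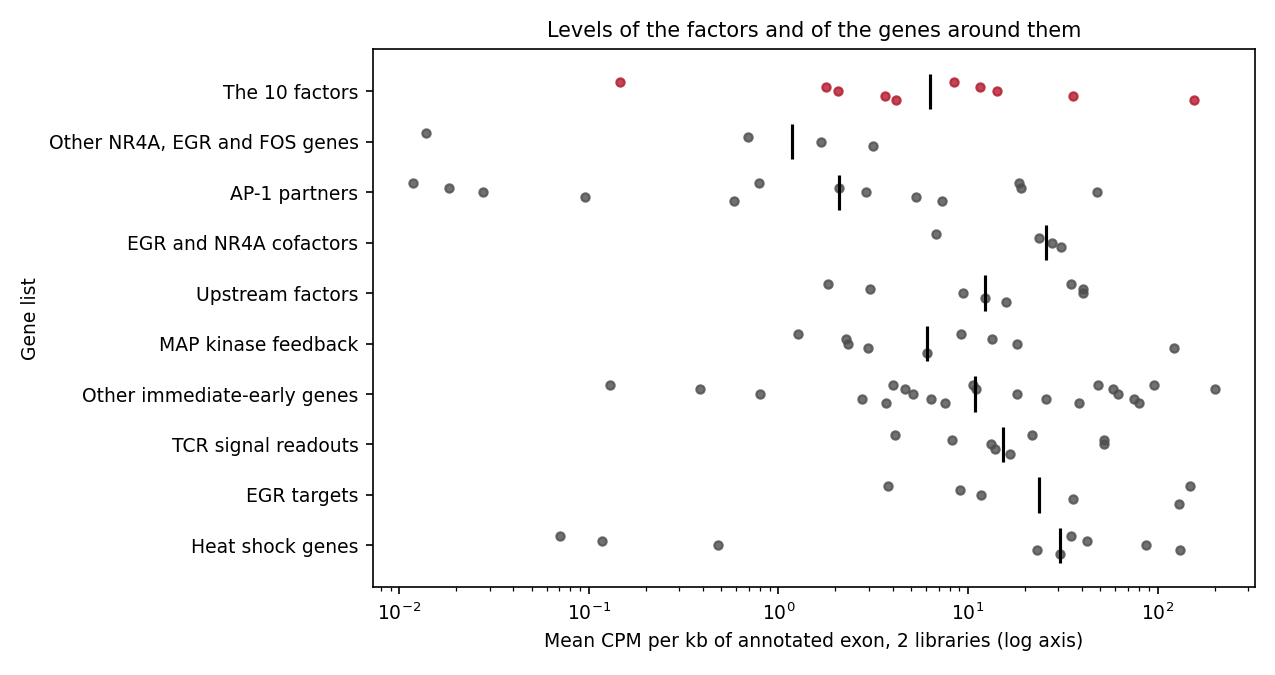
Mean CPM per kb of annotated exon over both libraries (log axis) for the 10 factors, in red, and for the lists of genes around them, with 1 point for each gene and a black bar at the list median. *Mef2c*, at 0, and *Mkl1* and *Mkl2*, for which no length was found, are not drawn; the lists overlap over most of their range, from 0.129 for *Klf4* to 200 for *Zfp36l2* among the other immediate-early genes.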

How the data were processed

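RNA of sorted CD4- mature thymocytes was made into poly(A) libraries and sequenced as single-end 50-base reads. The authors aligned the reads with TopHat2 2.1.1 to mm10 and counted reads per gene with HTSeq 0.6.1, versions that the submitters' processing notes also give. They deposited raw counts without normalization. The gene annotation and strand setting are not given in the sources used here. Rows that name no gene were left out of totals, 55.9% of uniquely aligned reads in each library being assigned to no feature.

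The members and lists were chosen with earlier results of these data known. Levels are CPM of the total on genes, divided by kb of GENCODE M21 union exon (GRCm38) to compare genes, as mean ± SD over 2 libraries. Of 48321 symbols, 46394 were in that annotation. Wilson 95% and exact intervals and the limit of 3 counts describe counting error alone, because the reads carry no molecular identifiers and PCR copies count as reads. With 1 library on each side, no dispersion can be estimated. Genes with at least 10 summed counts were therefore compared by an exact binomial test, two-sided and adjusted by the Benjamini-Hochberg method (Python 3.11.15, scipy 1.17.1, statsmodels 0.14.6). The test had first been tried on simulated counts with counting error alone, so that trial does not cover any wider spread between samples. The threshold was an adjusted p of 0.05, with and without a 2-fold minimum. Promoter windows came from RefSeq (GRCm38.p6).

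Named genes are the 10 factors, their family genes, the cofactors, and of each other list the 3 highest, the 2 lowest and any gene that differed at least 2-fold. Exceptions are marked. Alternatives used edgeR 4.0.16 TMM factors, DESeq2 1.42.0 size factors (R 4.3.3), totals without 393 mitochondrial and ribosomal RNA genes, minimums of 1 and 100 counts, edgeR's exact test with a fixed biological coefficient of variation of 0.1, each replicate left out, and other gene lengths. Wild-type libraries were not analysed here. Some genes of the lists are not reported here.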

Additional observations from a re-analysis of the deposited data

How the results depend on the processing

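The summed level of the 10 factors was 528 CPM (511 and 544 with either replicate alone) and became 616 CPM when 393 mitochondrial and ribosomal RNA genes were left out of the totals. None of the 10 differed at least 2-fold under any of 6 alternatives, of which that with at least 100 counts could test 9 and not *Fosb*, whereas the count over all genes went from 242 to 55 with at least 100 counts and to 60 with edgeR's exact test at a fixed biological coefficient of variation of 0.1. In that test the adjusted p was 0.811 for *Jun* and 1 for *Jund*, so neither passed. Under the other alternatives the adjusted p of *Jun* lay between 0.0088 and 0.0263. The log2 ratio of *Jund* fell from 0.23 to 0.16 with TMM factors and to 0.17 with DESeq2 size factors. Without the mitochondrial and ribosomal genes it was 0.18. The largest adjusted p of *Jund* under these scalings was 2.37e-05 in the exact binomial test. The log2 ratio of *Jun* went from -0.67 to between -0.74 and -0.72 under them. The split of genes lower and higher in replicate 2 was 92 and 150, and became 100 and 98 with TMM factors and 98 and 104 with DESeq2 size factors or without the mitochondrial and ribosomal genes. Of the family shares, that of *Nr4a1* within *Nr4a1* and *Nr4a3* was 73.4% per kb of exon, 61.8% by counts and 78.4% on the longest transcript (73.3 to 73.5% with a replicate left out). The share of *Egr1* within the 3 EGR genes was 54.1%, 58.8% and 50.8% in the same order (53.9 to 54.2%), and that of *Fos* within *Fos* and *Fosb* was 93.3%, 83.9% and 90.3% (92.5 to 94.0%). The share of *Jund* was 80.5%, 74.6% and 76.6% (79.0 to 82.0%), and 65.9% on RefSeq spans. Per kb of the longest transcript, the log2 level of *Egr1* over *Nr4a1* went from 0.30 to -0.16. No paired analysis was possible because the study has a single group. Counts of 14 to 116 limit the precision for *Fosb*, *Fos* and *Jun*.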

Other observations

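Heat shock genes, which encode chaperones, were described from a list of 9. The constitutive chaperone *Hspa8* had 131 ± 2.76, the mitochondrial co-chaperonin *Hspe1* 87.2 ± 3.48 and *Hsp90aa1* 42.5 ± 3.05 CPM per kb (SD, n = 2 each). The lowest were *Hspa1b* with 37 and 8 counts, *Hspa1a* with 6 and 1, and *Hspb1* with 2 and 2. *Hspa1a* and *Hspa1b* are near-identical copies, so that their counts are uncertain. *Hspa1b* was the only gene of the lists that differed at least 2-fold, with 2.21 CPM in replicate 1 and 0.492 in replicate 2 (log2 ratio -2.17, adjusted p = 0.000308, exact binomial test). *Hsp90aa1* (log2 ratio -0.15) and *Dnajb1*, chosen after its values were seen (-0.15), also passed, both lower in replicate 2 as *Jun* was. Of the 7 heat shock genes tested, only these 3 passed. Among the others, *Hspa8* had a log2 ratio of -0.04 and *Hspe1* of 0.08. The part of the heat shock genes in the difference of *Jun* was not tested.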
